A study of Mus musculus with 8 samples.

Results

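In 157 windows of 1000 bp, DNA methylation stayed near the sham level after ureteral obstruction and was lower where the obstructed mice had received 5AZA. The windows were chosen by rule from 65728 on the 19 autosomes that held at least 3 CpG positions with 10 or more reads in all 8 libraries and at least 100 summed reads in each library. The level of a window was its methylated reads as a percentage of all its reads. A window was kept where both obstruction libraries lay within 3 percentage points of their sham and where the higher of both 5AZA libraries lay at least 8 points below the lowest of those 3. Levels in these 5 libraries therefore chose the windows, and they are given here as a description from which no test draws support. The spread within both pairs does enter the model for ischemia below, and the rule narrowed that of the UUO pair. The ischemia libraries entered the rule only through the read minimums.

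All 8 libraries came from the kidney cortex and outer medulla of wild-type male C57BL/6J mice. Unilateral ureteral obstruction (UUO) blocks 1 ureter and leads to tubular injury and fibrosis of that kidney. It was sampled at 7 days in 2 libraries, in 2 more from mice also injected with 5AZA in saline at 1 mg per kg per day, and in 1 library from a sham-operated control. Clamping of both renal pedicles for 25 minutes was followed by 1 week or by 1 month of reperfusion, with 1 library each, and had a sham of its own, also with 1 library. The labels give neither the age of the mice, nor the length of the 5AZA treatment, nor a vehicle for the UUO mice without 5AZA, although the deposited names of both their libraries contain the word saline. They also do not say whether the libraries of a pair came from separate animals, so the SD of a pair is the spread between 2 libraries of unstated origin. The kidney contains many cell types, and a level is an average over all of them. A change within cells and a change in the mix of cells cannot be told apart in bulk DNA.

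Methylation of cytosine at CpG dinucleotides is copied onto the new strand at each round of DNA replication by the maintenance enzyme Dnmt1. Most CpG-poor DNA of adult tissue is methylated, whereas CpG-rich promoters mostly are not. The labels name the drug only as 5AZA. Azacytosine nucleosides, the DNA methyltransferase inhibitors usually abbreviated in this way, enter the DNA of dividing cells and trap the enzymes there, which leaves newly made strands unmethylated. Reduced representation bisulfite sequencing (RRBS) reads short MspI fragments, whose ends were filled in with methylated dCTP per the labels, and a window holds only the CpG positions that such fragments reach. No genome of the files' build, mm9, was at hand, so windows are named by mm9 coordinates alone, and their genes, exons and base sequence were not analysed here.

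Of the 65728 windows, 34571 met the condition on obstruction, and the 157 are 0.454% of these. Another 174 windows were at least 8 points lower with 5AZA but lay more than 3 points from the sham in at least 1 UUO library. The mirrored rule, with 5AZA at least 8 points above the highest of the 3 other libraries, found 0 windows among the 34571. In 21279 of these, and in 103 of the 157, the highest of the 3 libraries stood at 92% or less, so that a rise of 8 points was possible. The mirrored count comes from the same 5 libraries that chose the windows, so it is a description and no support is drawn from it. Without the condition on obstruction, 331 windows lay at least 8 points below and 3 at least 8 points above. With a smaller margin the contrast was one of degree. Both 5AZA libraries lay below all 3 others in 14541 of the 34571 windows and above all 3 in 2033. Dropping a library drops a condition, and the number of windows then grew to 432 or 363 when UUO 1 or UUO 2 was left out, and to 1381 or 667 when 5AZA library 1 or 2 was.

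The windows were highly methylated in the sham and UUO kidneys without 5AZA. In the UUO sham the lowest window stood at 44.3%, the median at 87.9% and the highest at 98.7%. In UUO 1 these values were 45.9%, 87.8% and 98.9%, and in UUO 2 they were 46.4%, 88.1% and 99.0%. These 3 libraries nearly coincided, which the rule required. In 5AZA library 1 the lowest window stood at 35.6%, the median at 77.1% and the highest at 88.8%, and in 5AZA library 2 these values were 25.8%, 76.0% and 88.5%. The median loss, the mean of the 5AZA pair minus the mean of the UUO pair, was -11.3 points, with a range of -24.0 to -8.50. Over all 65728 windows the median was -2.29 points, and 77.2% of them were lower with 5AZA. Relative to the UUO level the median difference was -13.2%, against -3.62% over all windows. Neither 5AZA library was the lower one throughout, with library 2 lower in 87 windows and library 1 in 70. The SD of the 5AZA pair had a median of 1.20 points and that of the UUO pair 0.86 points.

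**Figure D1:**
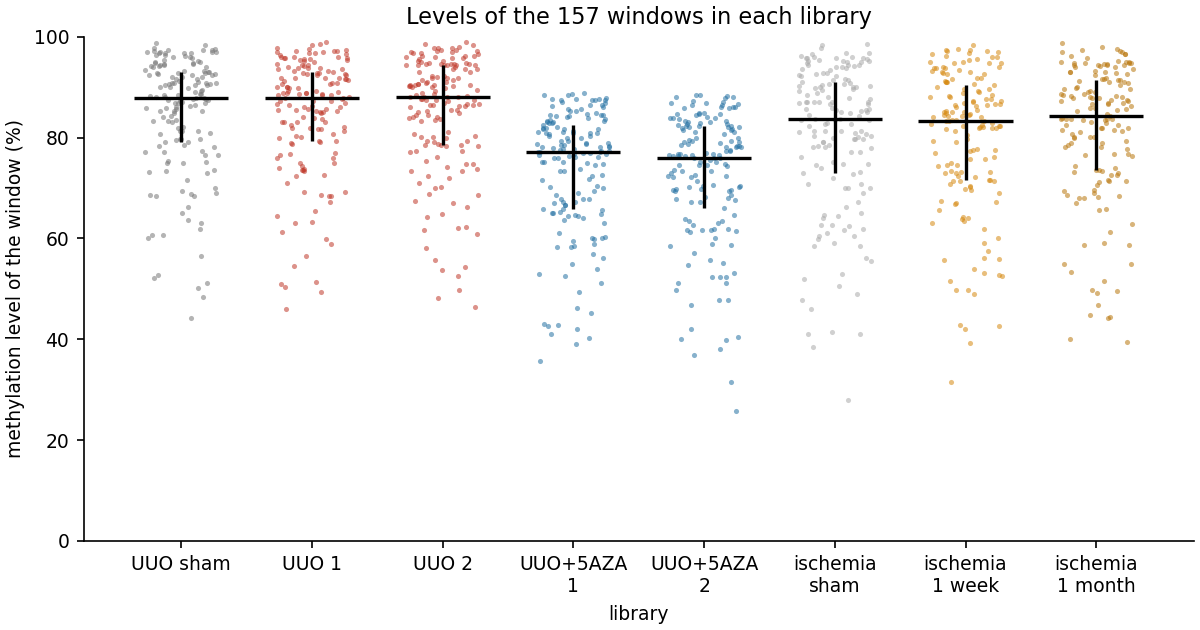
Methylation level (y axis, %) of each of the 157 windows (points) in each of the 8 libraries (x axis), with the median as a horizontal and the quartiles as a vertical black line. The UUO sham and both UUO libraries have medians of 87.9%, 87.8% and 88.1%, the 5AZA libraries 77.1% and 76.0%, and the ischemia-series libraries lie between, at 83.8%, 83.2% and 84.3%.

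Counting error was not small beside the thresholds. A window held a median of 236 reads in a library, from 100 to 5110, and the 95% exact binomial interval around its level had a median half-width of 4.75 points. The interval covers counting error only, since copies made by PCR were not told apart. Reads are summed over positions, and a read over several CpGs is counted at each, so the interval is too narrow. An apparent constancy within 3 points is thus narrower than the interval of most single levels, and a window cannot be said to have been left unmoved by obstruction beyond that precision. Of the 157 windows, 88 had a gap under 9 points between the 5AZA pair and the other 3 libraries, 46 had a gap of 10 points or more and 15 of 12 points or more. Just inside the threshold stood windows on chromosome 11 from 19840001 and on chromosome 16 from 33949001, both with a gap of 8.0 points, and on chromosome 14 from 99709001, with 8.01 points. Just outside stood windows on chromosome 15 from 8529001, at 8.0 points after rounding, and from 19579001, at 7.99 points, and on chromosome 16 from 14010001, at 7.98 points.

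The widest gap was in a window of intermediate methylation on chromosome 10 from 111095001 to 111096000, with 5 CpG positions. The UUO sham stood at 60.7% there, with 59.9% in UUO 1 and 60.8% in UUO 2, against 42.0% and 38.1% in the 5AZA libraries. The ischemia sham stood at 52.9%, ischemia at 1 week at 53.2% and at 1 month at 53.3%. The 3 ischemia-series libraries thus lay close together, below the UUO series without 5AZA and above 5AZA. Between 135 and 282 reads, summed over the 5 positions, lay behind each value. The 95% interval, too narrow for that reason, was 52.0 to 69.0% in the sham and 34.7 to 49.5% in 5AZA library 1.

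On chromosome 14 from 100825001 to 100826000 the UUO sham stood at 83.2%, the UUO libraries at 81.7% and 84.4%, and the 5AZA libraries at 65.1% and 67.6%. Here the ischemia sham, at 80.3%, and ischemia at 1 month, at 76.8%, were above both 5AZA libraries, while ischemia at 1 week, at 63.0%, was below both. On chromosome 11 from 86682001 to 86683000 the sham was at 91.0%, UUO at 90.1% and 90.3%, and 5AZA at 76.3% in both libraries. The ischemia-series libraries of that window, at 88.5%, 91.6% and 91.6%, stood with the UUO series without 5AZA and apart from 5AZA. A window on chromosome 9 from 98522001 to 98523000 had 80.8% in the sham, 83.1% and 83.6% after UUO, and 61.0% and 67.2% with 5AZA. In that window the ischemia sham, at 65.1%, was no higher than the upper 5AZA library.

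Among the other windows with the widest gaps, a further 2 lay on chromosome 14. From 33256001 to 33257000 the sham was at 66.2%, UUO at 68.6% and 67.1%, and 5AZA at 52.6% and 53.2%. From 63686001 to 63687000 the sham was at 82.0%, UUO at 83.2% and 80.8%, and 5AZA at 67.8% and 61.6%. Both had 5AZA pairs that lay at least 12 points under every UUO-series library without 5AZA. On chromosome 6 from 35239001 to 35240000, where the sham was at 76.5%, UUO stood at 79.3% and 74.7% and 5AZA at 58.2% and 61.8%. The ischemia sham of that window, at 60.5%, fell between both 5AZA libraries. On chromosome 10 a window from 66546001 had 89.0% in the sham, 88.8% and 88.1% after UUO, and 75.2% and 68.7% with 5AZA. Another from 51464001 had 90.9% in the sham, 91.7% and 91.4% after UUO, and 78.0% and 76.8% with 5AZA, with 92.8%, 90.4% and 94.7% in the ischemia-series libraries.

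The tenth of these windows, on chromosome 11 from 100644001 to 100645000, differed from the others in its spread. It stood at 79.5% in the sham and at 82.4% and 80.2% after UUO, but at 66.7% and 47.9% in the 5AZA libraries, an SD of 13.3 points. Its ischemia-series levels were also far apart, with 69.98% in the sham, 74.6% at 1 week and 87.8% at 1 month. It had 11 CpG positions and 163 to 582 reads per library. The 95% intervals of the 5AZA libraries, 60.4 to 72.6% and 40.0 to 55.8%, did not overlap. A read over several of the 11 positions is counted at each, so these intervals are too narrow.

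**Figure D2:**
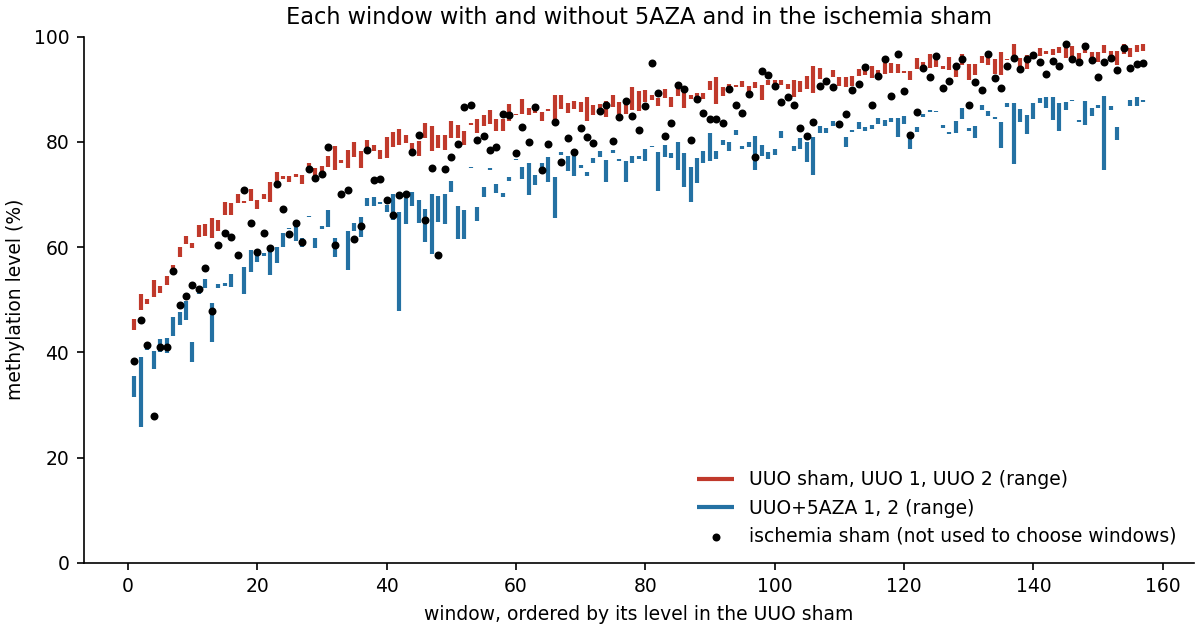
Methylation level (y axis, %) of each of the 157 windows (x axis, ordered by level in the UUO sham), with the range of the UUO sham and both UUO libraries in red, the range of both 5AZA libraries in blue and the ischemia sham as black points. The red and blue ranges are apart by construction, and the ischemia sham is above the higher 5AZA library in 138 windows.

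Few CpG positions lay in most of the windows. The median was 5 measured positions, against 6 over all windows and 8 over the other windows unmoved by obstruction, and 150 of the 157 had fewer than 10. Positions spanned a median of 125 bp, and in 146 windows no gap between neighbouring positions exceeded 250 bp, so that a window usually sampled 1 short stretch of DNA. The richest window, on chromosome 2 from 151796001 to 151797000, had 27 positions and about 1000 or more reads in every library, from 1007 to 1683. It stood at 62.0% in the sham, 63.3% and 64.2% after UUO, and 51.2% and 51.1% with 5AZA. The ischemia-series libraries, at 52.0%, 56.1% and 54.96%, were above 5AZA by less than 5 points.

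The next 4 by CpG number had 11 positions each, and 1 of them is the variable window on chromosome 11 above. On chromosome 4 from 154358001 the sham was at 73.1%, UUO at 73.6% and 72.4%, and 5AZA at 63.7% and 63.5%, while the ischemia sham stood at 62.5%. On chromosome 15 from 84247001 the sham was at 71.6%, UUO at 72.6% and 74.3%, and 5AZA at 57.0% and 60%, while the ischemia-series libraries stood at 72.0%, 73.4% and 73.5%. The former window thus had an ischemia sham at the 5AZA level and the latter one at the level of the UUO sham. The deepest window lay on chromosome 12 from 20240001, with 2943 to 5110 reads per library. It stood at 76.6% in the sham, 76.6% and 76.1% after UUO, and 67.3% and 67.2% with 5AZA. A window 3 kb before it, from 20237001, was chosen too, with 78.4%, 79.4% and 78.8% against 69.5% and 67.8%, at 2071 to 3902 reads. Named after its values were seen, this was the only pair of chosen windows within 10 kb, and both had far more reads than the median of 236.

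Within a window the loss was shared by most positions but was uneven. The windows held 834 positions, of which 791, or 94.8%, had a lower mean with 5AZA than after UUO, and in 119 windows every position did. Both 5AZA libraries lay below all 3 others at 590 positions, or 70.7%, against 14.7% of all positions in the 65728 windows. The rule chose the windows by the summed reads of these same positions and libraries. High shares thus follow from it, and nothing is read from that contrast. In the window with the widest gap, the position at 111095712 stood at 54.6% in the sham, 62.5% and 63.4% after UUO and 22.2% and 22.6% with 5AZA. The last position of that window, at 111095761, stood at 80%, 75% and 81.5% against 78.6% and 83.3%. Positions 49 bp apart on the same stretch thus differed by -40.6 and 2.71 points between the 5AZA and UUO means. These were the lowest and the highest of the 5 differences there. The positions had 31 to 72 and 20 to 44 reads in these libraries, so their levels are less precise than that of the window. In the window on chromosome 14 from 33256001 the corresponding differences ran from -31.0 to -1.12 points over 5 positions, and in that from 63686001 from -24.5 to -5.21 points over 6. In the window with 27 positions, 3 neighbours at 151796529, 151796542 and 151796551 were lower with 5AZA, with differences of -39.2, -41.2 and -39.4 points, while the other 24 differed by -17.8 to 5.98 points. Those 3 positions had only 17 reads each in the sham, and the ischemia sham stood at 35.6%, 26.7% and 35.6% there, near the 5AZA levels.

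**Figure D3:**
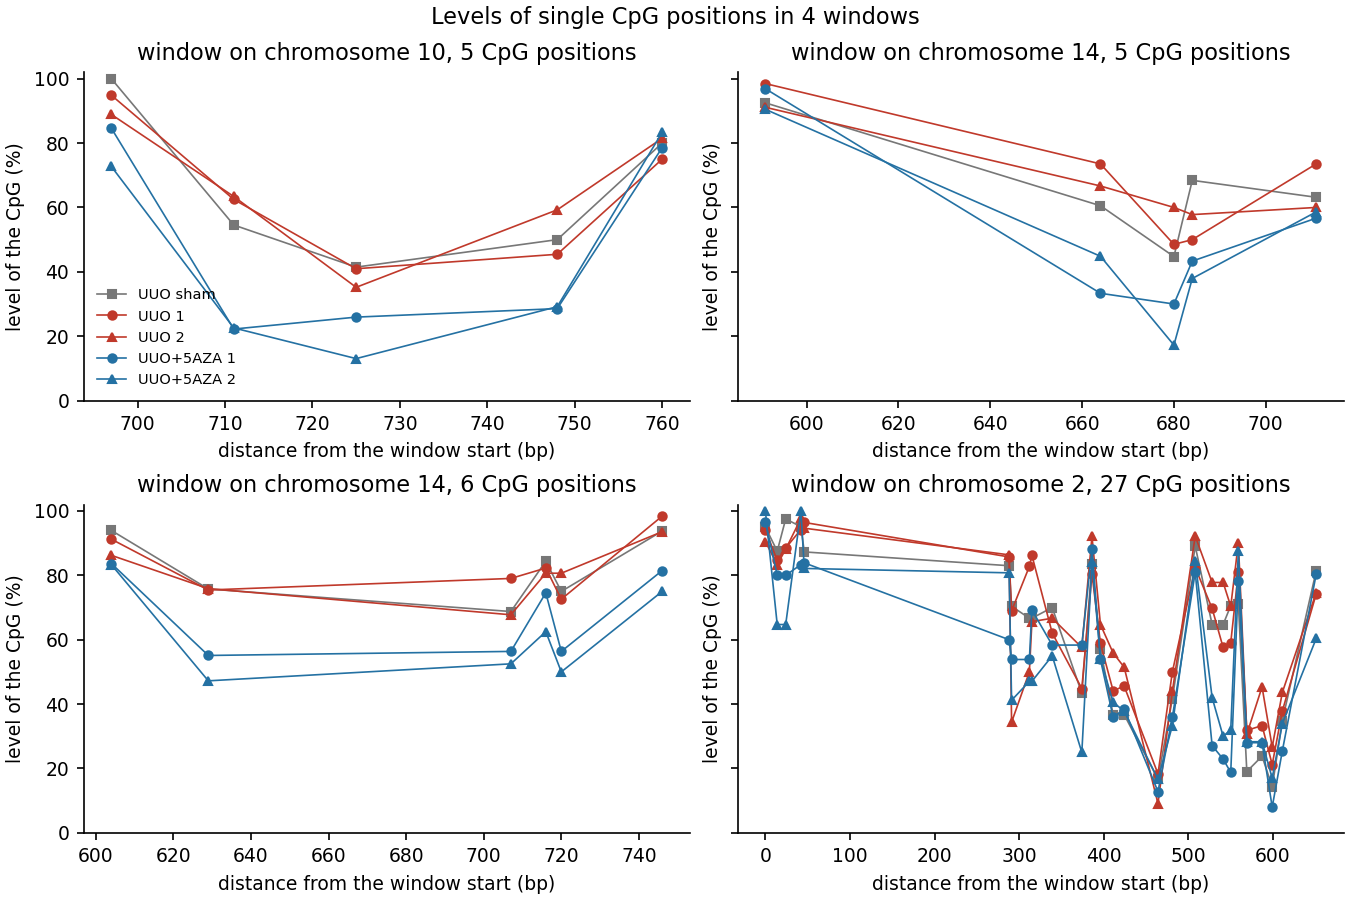
Methylation level (y axis, %) of each CpG position against its distance from the start of its window (x axis, bp) in 4 windows, with the UUO sham in grey, both UUO libraries in red and both 5AZA libraries in blue. The largest differences between colours sit at single positions or short runs, and in the window on chromosome 10 the last position shows no lower level with 5AZA.

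At the ends of RRBS fragments the difference was smaller than inside them. Edges were inferred from where the depth changed, and a position counted as inside where both neighbouring CpGs lay within 250 bp, had at least 40 reads over all libraries and differed in depth by at most 10%. By this rule 273 of the 834 positions, in 112 windows, were inside fragments. They averaged 75.6% in the sham, 75.6% and 76.4% in the UUO libraries, and 61.6% and 58.7% with 5AZA, a difference of -15.8 points between the means of the pairs. At the 561 edge positions the levels were 86.2%, 86.9% and 86.6% against 77.2% and 76.1%, a difference of -10.1 points. Over all windows the order was the other way, with -1.56 points inside and -1.90 points at edges, but inside positions there were mostly unmethylated, at a mean of 17.3% in the sham. With edge positions left out altogether, most of the chosen windows had too few positions left to be judged. Only 22 of them stayed eligible among 26414 windows, and the rule then found 79 windows, 8 of them among the 157.

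The windows also hold 362 positions, in 92 windows, that the rule left out because a library had under 10 reads. With reads pooled over these positions, from 1275 to 2388 per library, the sham stood at 76.3%, UUO at 83.4% and 81.0%, and 5AZA at 78.7% and 73.1%. The 5AZA mean differed by -6.35 points from the UUO mean, against -12.0 at the positions used, but by only -0.48 points from the sham. At these positions the 5AZA libraries and the sham thus overlapped. Depth at a position differs between libraries there, so pooled reads do not weigh the same positions alike in each library. In the 13 windows with at least 20 such reads in each of the 5 libraries, the 5AZA mean was below the UUO mean in 10 and below the sham in 9, with medians of -3.45 and -1.80 points. Both 5AZA libraries lay below all 3 others in 2 of the 13. One is the 27-position window on chromosome 2, where these other positions stood at 60.3%, 62.8% and 63.9% against 46.2% and 30.0%. The other, named after its values were seen, is on chromosome 18 from 35409001, with 46.3%, 44.0% and 48.3% against 40.0% and 31.0%. It rests on 1 such position.

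**Figure D4:**
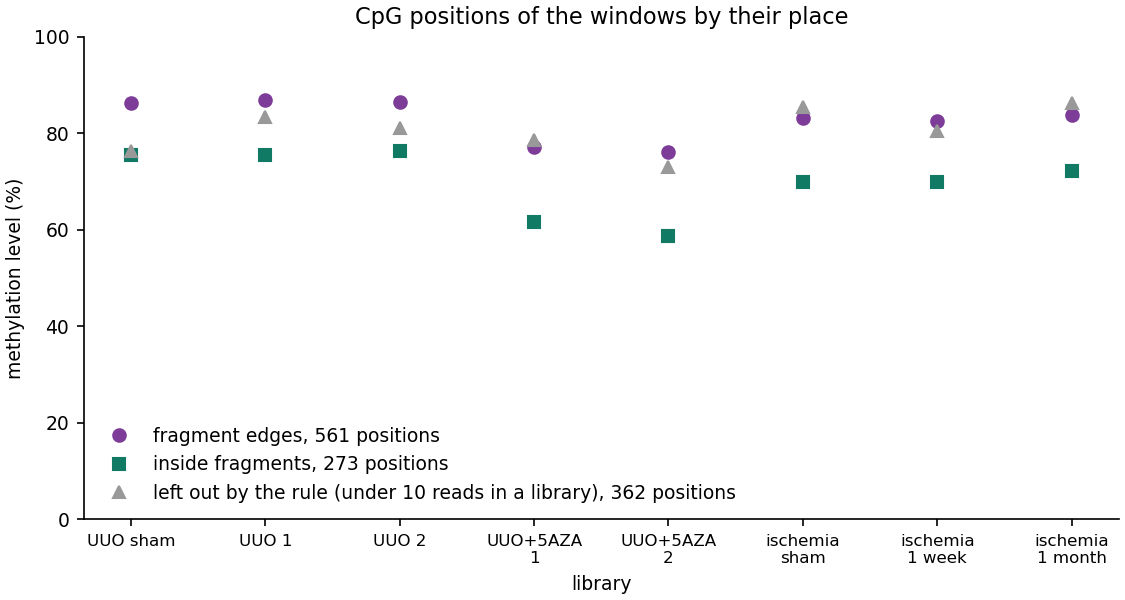
Methylation level (y axis, %) in each library (x axis) over the CpG positions of the chosen windows, as the mean of positions at fragment edges (purple circles) and inside fragments (green squares), and with reads pooled over positions left out by the rule (grey triangles). Inside fragments the level is 75.6% in the UUO sham and 61.6% and 58.7% with 5AZA, whereas at left-out positions the sham, at 76.3%, lies between the 5AZA libraries.

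The windows lay on all 19 autosomes, with 5 to 16 on each, and made up between 0.237% (chromosome 4) and 0.716% (chromosome 19) of the windows unmoved by obstruction there. The median distance to the next one was 7260000 bp. Only 24 of the 157 had a measured window directly beside them. The 26 such neighbours, none of them chosen, had a median difference of -4.45 points with 5AZA and were lower in 24 cases, and their UUO pair differed from the sham by a median of 1.3 points. Neighbours of the other unmoved windows had a median of -0.46 points, but they were also far less methylated, with a median UUO level of 22.1% against 79.3%.

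By starting level, the windows came from a narrower range than the rest. None of the 15723 unmoved windows under 40% in the sham was chosen. The lowest of the 3 libraries stood at 8% or more in 34409 of the 34571 unmoved windows. This leaves room for a loss of 8 points by arithmetic only. Few unmoved windows lay near 0, with 1217 under 10% in the ischemia sham and 13769 at 10 to 30%. Positions of the other unmoved windows averaged 12.7% inside fragments and 47.2% at edges in the UUO sham. How much of a low level could be lost was not tested, so nothing is read from the absence of chosen windows there. Of the 473 unmoved windows at 60 to 70%, 14 were chosen, or 2.96%. At 70 to 80% the count was 24 of 776, or 3.09%, at 80 to 90% it was 45 of 2926, or 1.54%, and at 90% or more it was 67 of 13904, or 0.482%. Among unmoved windows the share was thus highest at 60 to 80%, although the class at 90% or more held the most windows. Unmoved windows were themselves 13.8%, 16.6%, 31.3% and 68.7% of all windows in these 4 classes, which held 3435, 4685, 9335 and 20228. The shares depend on that base, and set against all windows of a class they would lie closer together. The other unmoved windows were lower with 5AZA too, with medians of -3.65, -4.08, -3.96 and -3.41 points in the same 4 classes. Those chosen had medians of -13.1, -12.0, -11.8 and -10.6 points, which the rule required to be large.

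**Figure D5:**
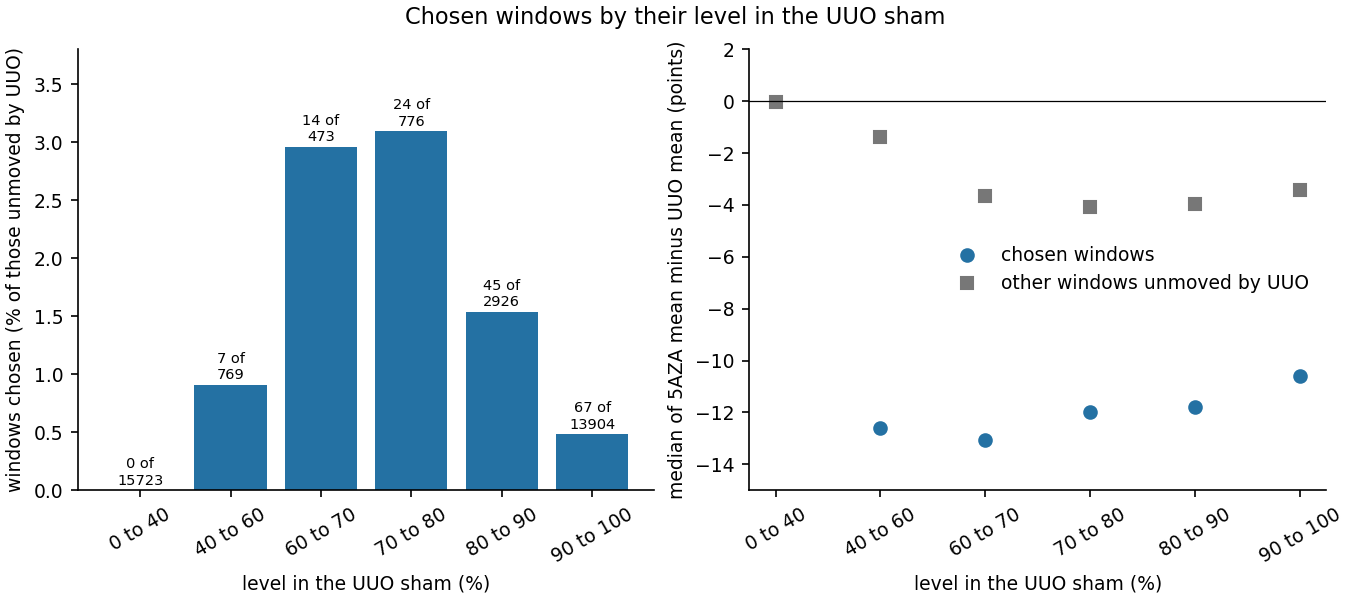
Left, the share of windows unmoved by obstruction that were chosen (y axis, %, bars from 0) by level in the UUO sham (x axis, %), with counts above the bars. Right, the median of the 5AZA mean minus the UUO mean (y axis, points) for the chosen (blue circles) and the other unmoved windows (grey squares), which runs from -0.02 below 40% to -4.08 at 70 to 80% in the latter.

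Low depth was common among the chosen windows. Of the 157, 80 had a library with 100 to 150 reads, or 51.0%, against 19.6% of the unmoved windows, and 5 had 400 or more reads in every library, or 3.2% against 43.6%. The windows of both ranges differed in CpG number and level as well, and what part depth had in the choice was not tested.

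The 174 windows that were also lower with 5AZA but failed the condition on obstruction started from a lower level. Their median was 77.0% in the UUO sham, 79.4% and 78.8% after UUO, and 64.0% and 63.7% with 5AZA. The UUO mean was above the sham in 127 of them and below it in 47. Both UUO libraries lay more than 3 points above the sham in only 35 of the 174 and more than 3 points below it in 16. The others did not differ from the sham by that much in both libraries in the same direction. The median loss of the 174, from UUO to 5AZA, was -13.8 points, against -11.3 in the 157. Measured CpG positions were as few, with a median of 5 in both sets. Both sets share the 5AZA condition of the rule and differ by its condition on obstruction, so these levels are given side by side without a test.

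The levels of the ischemia series did not enter the choice of windows. The ischemia sham had a median of 83.8% over the 157 windows, ischemia at 1 week 83.2% and at 1 month 84.3%. These medians were above the 5AZA libraries and below the UUO series. In 138 windows the ischemia sham was above the higher 5AZA library, in 139 the 1-week library was and in 149 the 1-month library was. All 3 were above in 128 windows, or 81.5%, against 23.8% of all windows. Part of that share is set by the rule, which pushed the 5AZA libraries of the windows to the bottom. In 2 windows, named after their values were seen, all 3 were at or below the higher 5AZA library. They are on chromosome 8 from 121965001, where the ischemia series stood at 74.6%, 72.1% and 73.3% and 5AZA at 74.6% and 76.0%, and on chromosome 19 from 57492001, at 41.1%, 42.7% and 39.5% against 42.7% and 39.8%.

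The UUO sham lay above the ischemia sham in most of these windows. The ischemia sham was the lower one in 128 of 157, or 81.5%, with a median difference of -3.76 points, against 62.9% and -0.85 points over all windows. The 174 windows that were lower with 5AZA but failed the condition on obstruction showed this as well, in 143 of 174, or 82.2%, with a median of -4.50 points. Among windows at 70 to 80% in the UUO sham, the median was -6.37 points in the 24 chosen and -2.42 in the other unmoved ones, and at 90% or more it was -2.14 and -0.27. The UUO sham was one of the libraries used in the choice and the ischemia sham was not, and the shams also belong to different surgical series. Set against the ischemia sham, the 5AZA mean was lower in 146 windows, or 93.0%, with a median of -7.91 points instead of -11.3 against UUO. Over all windows it was lower in 54.7%, with a median of -0.51 points, and the rule chose the 157 for low 5AZA levels. With the ischemia sham in place of the UUO sham, the rule found 119 windows, and 39 of the 157 were among them.

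At the ends of that range, the windows with the highest ischemia sham were nearly fully methylated without 5AZA. On chromosome 2 from 152150001 the ischemia sham stood at 98.6%, ischemia at 96.6% and 97.4%, the UUO series at 96.8%, 95.9% and 99.0%, and 5AZA at 87.7% and 86.0%. Those on chromosome 15 from 96997001, chromosome 19 from 23198001, chromosome 1 from 103316001 and chromosome 8 from 14846001 had 96.7 to 98.3% in the ischemia sham and 80.9 to 88.4% with 5AZA. In these 5 windows 5AZA was below all 6 other libraries. In the 5 windows with the lowest ischemia sham, its place relative to the 5AZA pair varied. On chromosome 5 from 103794001 it stood at 27.9%, ischemia at 31.4% and 44.3%, the UUO series at 51.1%, 50.5% and 53.7%, and 5AZA at 40.3% and 36.8%, so that it lay below both 5AZA libraries. On chromosome 8 from 13493001, at 38.4% against 35.6% and 31.6%, and on chromosome 19 from 43516001, at 41.5% against 41.02% and 40.5%, it lay above both. Between the 5AZA libraries it lay on chromosome 19 from 37765001, at 41.1% against 42.6% and 40.1%, and from 57492001, at 41.1% against 42.7% and 39.8%.

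Whether ischemia moved these windows was tested in a model over all 65728 windows, a quasi-binomial fit with dispersion moderated by limma. It took the spread of single libraries from both replicated groups, and the rule narrowed that of the UUO pair. The SD of that pair had a median of 0.86 points in the 157, against 1.21 over all windows. In fits that use this spread, shares at an unadjusted p are thus not like for like between the 157 and all windows. Nothing is read from them, and the part of the spread was not tested. Calls needed an adjusted p under 0.05 together with at least 10 points between the levels. After 1 week the model called 0 of the 157, with 0% called among all windows, and after 1 month likewise 0, with 0% among all windows. With a minimum of 5 points it also called 0 of the 65728 at both times. A model that called no window at all cannot tell whether ischemia moved the 157. At an unadjusted p below 0.05 in that quasi-binomial fit with limma, 10 of the 157 differed after 1 week, or 6.37%, against 3.78% of all windows, 7 of the 10 lower. After 1 month 16 did, or 10.2%, against 4.39% of all windows, 12 of the 16 higher. With both shams taken as 1 group, 0 of the 157 were called, against 5 of the 65728 at 1 week and 0 at 1 month. Most of the 157 under that unadjusted threshold were lower, 18 of 19 at 1 week and 10 of 11 at 1 month. Those 19 and 11 windows are 12.1% and 7.01% of the 157, against 5.01% and 5.78% of all windows. The UUO sham had a part in choosing the windows and was mostly the higher sham, so nothing is read from that direction. edgeR called 0 at both times, and 0 of all windows. It gave 10 and 16 of the 157 an unadjusted p below 0.05, or 6.37% and 10.2% against 3.72% and 4.21% of all windows. Fisher's exact test of the reads compares 2 libraries and not the conditions, and 0 of the 157 passed it at an adjusted p of 0.01 with at least 25 points. The share of all windows that passed was 0.0243% after 1 week and 0.0198% after 1 month. Differences from the ischemia sham in the 157 ran from -17.3 to 10.6 points at 1 week and from -10.8 to 17.8 at 1 month. The minimum of 25 points thus fixed that 0, and nothing is read from it.

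The median difference from the ischemia sham over the 157 windows was -0.86 points after 1 week, with 86 windows lower and 71 higher, and -0.47 points over all windows. After 1 month it was 1.26 points, with 94 windows higher and 63 lower, against -0.17 points over all windows. In windows at 70 to 80% in the UUO sham the 1-month median was 4.17 points in the 24 chosen and 0.08 in the other unmoved ones. At 80 to 90% it was 0.27 in the 45 chosen and -0.01 in the others. By level in the ischemia sham instead, the chosen and the other unmoved windows were mostly closer. At 70 to 80% the medians were 1.44 and 0.88, at 80 to 90% 1.43 and 0.93, and at 90% or more -0.92 and -0.37. At 50 to 70% they were 3.95 and 0.83. Each of these rests on 1 library per group. Both times share that sham library, so its own error enters both values. Only 54 of the 157 windows, or 34.4%, had both ischemia libraries within 3 points of their sham, against 58.3% of all windows and 74.2% of the other windows unmoved by obstruction. The latter also held more reads, with a median of 316 in their shallowest library against 149 in the 157. Starting level differed too. Of all unmoved windows 45.5% stood under 40% in the UUO sham, against 0.0% of the 157, and 40.2% at 90% or more, against 42.7%. The parts of depth and of level in this were not tested.

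The smallest adjusted p among the 157 was 0.74, in the quasi-binomial fit with limma, for the deep window on chromosome 12 from 20240001 after 1 month. It stood at 70.04% in the ischemia sham, 71.6% at 1 week and 76.8% at 1 month, a difference of 6.75 points (SE 1.04) at 1 month. Its neighbour from 20237001 stood at 72.8%, 73.0% and 78.2%, a difference of 5.40 points (SE 1.23). In both windows the 1-month library thus reached the level of the UUO series, and neither passed. After 1 week the lowest unadjusted p among the 157, 0.000274 in that fit with limma, belonged to a window on chromosome 7 from 38151001, chosen for it after the values were seen. It stood at 95.8% in the ischemia sham, 82.2% at 1 week and 91.0% at 1 month, a difference of -13.6 points (SE 2.52) at 1 week with an adjusted p of 1. The UUO series stood at 93.0%, 94.96% and 94.5% there, and 5AZA at 84.1% and 83.1%.

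For the contrast by which the windows were chosen, the same model called 5 of the 157 as lower with 5AZA, beside 0.0609% of all windows, and nothing can be read from that count. The 5 lay on chromosome 2 from 151796001, chromosome 7 from 38151001 and 46467001, chromosome 12 from 20237001 and chromosome 16 from 28878001. They had 5 to 27 CpG positions.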

How the data were processed

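RRBS libraries were compared through deposited read counts per CpG position, in which the authors list the reads and the methylated reads. The deposited fraction per position was not used as a value. Per the submitters' processing notes, reads were aligned with Bowtie to mm9. The methylation caller, its filters and all versions were not given in the sources used here. Libraries were mapped to groups by their titles. Summed depth ran from 57853745 to 86411736 reads per library, the median position having 33 to 48, and 959366 autosomal positions passed 10 reads in all 8. Reads over several CpGs are counted at each, so binomial intervals are too narrow.

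The windows and lists were chosen with earlier results of these data known. Named windows were the 10 with the widest gap, the 5 with most CpGs, the 5 with the highest and the 5 with the lowest ischemia sham, and the 3 on either side of the 8-point threshold. Positions are shown for the 3 widest gaps with at least 5 CpGs and for the window with most CpGs.

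Window counts were summed in Python 3.11.15 (numpy 2.4.6, pandas 2.3.3, scipy 1.17.1, matplotlib 3.10.9). A quasi-binomial model with dispersion moderated by limma 3.58.1 in R 4.3.3 was fitted to the counts of all 65728 windows with 6 groups, with Benjamini-Hochberg adjustment over all of them. With 2 pairs there were 2 residual degrees of freedom, and groups of 1 library borrowed their spread. The script was tested on simulated data. edgeR 4.0.16, limma on log2 ratios (pseudocount 1, computed from the deposited counts), Fisher's exact test, other read minimums, window sizes, thresholds and left-out libraries were alternatives. Calls at 1 week and 1 month share the ischemia sham.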

Additional observations from a re-analysis of the deposited data

Results flagged for a closer look

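The median difference from the ischemia sham over the 157 windows had opposite signs at the 2 times of reperfusion, with -0.86 points at 1 week and 1.26 points at 1 month. The difference between these medians was not tested. In the fit below the spread comes partly from the UUO pair, which the rule narrowed in these windows, so nothing is read from its shares. Window by window, the quasi-binomial fit with limma of 1 month against 1 week called 0 of the 157 and 0 of all windows. In that fit with limma 13 of the 157 had an unadjusted p below 0.05 (8.28%, against 4.4% of all windows). Their smallest adjusted p in it was 0.896. edgeR and limma on log2 ratios also called 0 of the 157 and 0 of all windows.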

How the results depend on the processing

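The number of windows follows the thresholds. It was 97 with UUO within 2 points of sham, 242 within 5 points, 607 with 5AZA at least 6 points below and 15 at least 12 points below, against 157. Without fragment-edge positions it was 79, and leaving out 1 library at a time gave 363 to 1381, where fewer libraries also mean fewer conditions. Other read minimums, window sizes, a 500 bp shift, an unweighted mean, a depth limit and the ischemia sham as reference gave 119 to 181. Those found under other settings were partly different windows, with 109 of the 157 among the 181 under the unweighted mean, and 103 of the 157 overlapped by the 177 windows of 300 bp.

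For 5AZA against UUO, 5 windows were called. With the replicate number as a block it was 98, with limma on log2 ratios 0, without edge positions 9 of only 22 windows tested, and with 1 library left out 0 to 37. The cause was not tested. The labels do not say that the numbers pair libraries, and the deviations of UUO 1 and 5AZA library 1 correlated at 0.091 over all windows. The block raised calls over all windows from 40 to 1952. The ischemia comparisons called 0 of the chosen windows under each alternative run, with all 157 tested except without edge positions (22 tested) and with at least 20 reads per position (135 tested). Calls were rare over all windows too, with at most 16 of 65728 (Fisher's exact test, 1 week), and 12 of 26414 without edge positions (1 month). Nothing is read from the 0.

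Of the medians, the 1-week difference went from -0.86 to -1.93 without edge positions, over the 26 windows with at least 100 reads left, and to -0.03 over the 39 with 200 or more reads, and the 1-month difference from 1.26 to 0.76 over the 135 windows that the rule found with at least 20 reads per position, 120 of them among the 157. The 5AZA difference went from -11.3 to -14.16 over the same 26 windows, and lay between -11.66 and -10.75 with 1 library left out, an alternative chosen after seeing the data, as were the mirrored rule and the positions of low depth. The causes were not tested. Depth limits most single levels to about 5 points, by intervals that are too narrow.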
